A study of Mus musculus with 9 samples.

Results

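The ETS factors are transcription factors that share 1 DNA-binding fold, the ETS domain. The 8 described here, Spi1, Spib, Ets1, Fli1, Etv6, Elf1, Elf4 and Gabpa, are family members of blood cells whose genes lie outside the segment that is triplicated in Ts1Rhr mice. They were chosen by symbol, as 8 of 23279 gene rows and 8 of the 26 ETS rows in the deposited tables. All 8 had a mean of at least 1 FPKM (fragments per kilobase of transcript, relative to the fragments sequenced) over the libraries, and so all were among the 10878 genes tested. Spi1, which encodes PU.1, stands in the files under its older symbol Sfpi1.

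The data were 9 polyadenylated RNA libraries from cultured primary mouse pro-B cells, 3 per group. Marrow cells of mice aged 6 to 8 weeks were grown with interleukin-7 in methylcellulose, and each culture's colonies were pooled after 7 days. The groups were wild-type littermates, mice overexpressing Hmgn1 on C57BL/6 (called HMGN1 here), and Ts1Rhr mice on an FVB x C57BL/6 F1 background, in which the stretch of chromosome 16 between Cbr1 and Fam3b is present in an additional copy. The sources used here do not give the wild-type background, the animals behind the replicates or the construct behind the overexpression. Strain and genotype therefore cannot be told apart between the mutant groups, nor between either of them and wild type. The p-values reflect only how far these samples scatter. The labels call the replicates biological. The series title asks whether the triplicated segment raises transcription as a whole through HMGN1.

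Most ETS factors bind DNA at a short core, GGAA, and are told apart by the bases around it, by their partner proteins and by the cell in which they are made. PU.1 is required for the myeloid and lymphoid lineages, with high levels in macrophages and lower ones in B cell precursors, and Spi-B is its closest relative, made mainly in B cells and plasmacytoid dendritic cells. Ets1 and Fli1 are close relatives that act in lymphocytes and in stem cells and megakaryocytes, Etv6 is a repressor, and Gabpa is the DNA-binding chain of GABP, a regulator of housekeeping and mitochondrial genes.

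Hmgn1, a nucleosome-binding protein gene inside the triplicated segment, was the check of the labels. It stood at 60.1, 67.3 and 58.5 raw FPKM in wild-type replicates 1, 2 and 3, at 77.2, 71.9 and 73.4 in HMGN1, and at 127, 125 and 126 in Ts1Rhr, so the groups did not overlap. Per library, 10720 to 10893 genes reached 1 raw FPKM. The sequencing depth is unknown, since the files hold no counts. The cultures were not of 1 cell type. All 14 pro-B markers were detected, but 13 of 14 macrophage markers also had a mean of at least 1 FPKM, led by Lyz2. Their summed raw FPKM was 37966, 25280 and 25502 in wild type, 20750, 30536 and 14650 in HMGN1, and 18429, 17783 and 16175 in Ts1Rhr. Wild-type replicate 1 was the highest, HMGN1 replicate 2 lay among the wild-type libraries, and all Ts1Rhr libraries lay below all wild-type ones. Ts1Rhr replicate 3 came from a male culture by its Xist (0.443 raw FPKM) and Ddx3y (41.8), unlike the other 8 libraries, in which Xist stood at 94.2 to 193.

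In Ts1Rhr cultures, Spi1 transcripts stood at 0.487 times and Ets1 transcripts at 1.74 times their wild-type level in raw FPKM (ratios of geometric means, 3 libraries a group). In the raw table both differences passed the test (limma with Benjamini-Hochberg adjustment over all tested genes, adjusted p under 0.05), so 2 of the 8 factors changed, 1 in each direction, against 8.85% of all genes tested (4.29% higher and 4.56% lower). In the spike-in normalised table, the main test, neither did, and 0 of the 8 passed, against 0.57% of all genes. At an unadjusted limma p under 0.05 it was 4 of the 8 in each table, against 19.5% of all genes in the normalised table and 30.9% in the raw one. Gabpa and Elf1 were higher in every Ts1Rhr library than in every wild-type one without passing the test, and Spib, Fli1, Etv6 and Elf4 differed by at most 0.24 on the log2 scale in both tables. In HMGN1 cultures 0 of the 8 passed in either table, against 0.0919% of all genes in the normalised table and 0.0368% in the raw one, and 1 (Ets1) had an unadjusted limma p under 0.05 in each, against 11.7% and 14.6%. Between Ts1Rhr and HMGN1, 0 of 8 passed, as did 0% of all genes in both tables, and at an unadjusted p under 0.05 it was 0 in the normalised table, against 4.37%, and 1 (Gabpa) in the raw one, against 8.85%.

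**Figure D1:**
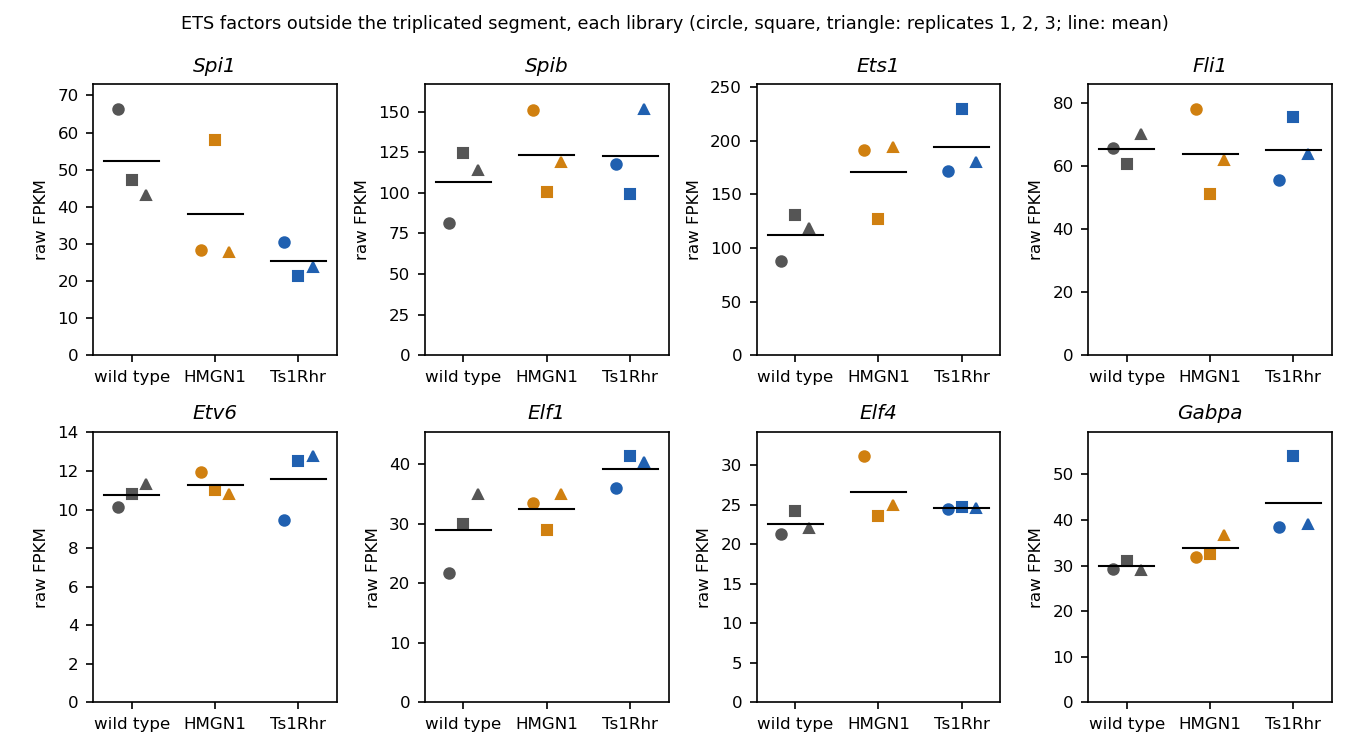
Raw FPKM of each factor (vertical axes from 0) in the 3 libraries of each group, with circles, squares and triangles for replicates 1, 2 and 3 and a line at the group mean. Spi1 in Ts1Rhr (21.4 to 30.5) lies below wild type (43.2 to 66.3), Ets1 lies above it, and HMGN1 replicate 2 lies with the wild-type libraries for both.

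Spi1 encodes the factor that myeloid cells need in high amount. It stood at 66.3, 47.2 and 43.2 raw FPKM in wild-type replicates 1, 2 and 3, at 28.3, 57.9 and 27.8 in HMGN1, and at 30.5, 21.4 and 23.8 in Ts1Rhr. The wild-type and Ts1Rhr values did not overlap, while HMGN1 replicate 2 lay inside the wild-type range and the other two HMGN1 libraries lay inside that of Ts1Rhr. The normalised values were 79.1, 48.2 and 34.9 in wild type, 26.6, 79.9 and 29.3 in HMGN1, and 32.7, 21.3 and 21.9 in Ts1Rhr, again without overlap of wild type and Ts1Rhr but with a wider spread. The mean was 52.3 ± 12.3 (SD, n = 3) in wild type and 25.3 ± 4.74 in Ts1Rhr in raw FPKM.

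On the log2 scale Spi1 fell by 1.04 (SE 0.28, limma adjusted p = 0.046) from wild type to Ts1Rhr in the raw table, and the call was lost without any 1 of the wild-type or Ts1Rhr libraries, where adjusted p ran up to 0.189 with differences of -1.18 to -0.85. The normalised difference was equally large at -1.04, with a wider 95% interval of -1.84 to -0.24 and an adjusted p of 0.163. HMGN1 against wild type gave -0.52 in raw and -0.37 in normalised FPKM (limma adjusted p = 0.396 and 0.701), and with 1 library left out these ran from -0.87 to -0.34 and from -0.87 to -0.05. Without HMGN1 replicate 2 the highest Spi1 value left in that group was 28.3.

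Ets1, a factor of lymphoid cells, was the most abundant of the 8. It stood at 87.7, 131 and 119 raw FPKM in wild type, at 191, 127 and 194 in HMGN1, and at 172, 230 and 180 in Ts1Rhr. All Ts1Rhr libraries lay above all wild-type ones, and HMGN1 replicate 2 again lay with wild type, just under its highest library. In the normalised table the values were 113, 143 and 93.8 in wild type, 200, 181 and 196 in HMGN1, and 167, 220 and 165 in Ts1Rhr, so that there both mutant groups lay wholly above wild type. Ets1 rose by 0.80 on the log2 scale in Ts1Rhr in the raw table (SE 0.21, limma adjusted p = 0.0458), and again the call was lost without any 1 wild-type or Ts1Rhr library, with adjusted p up to 0.188. It was also lost, at 0.051, without HMGN1 replicate 1, which enters only through the shared estimate of spread. The normalised difference was 0.66 (SE 0.27, limma adjusted p = 0.195). HMGN1 against wild type gave 0.60 in raw and 0.74 in normalised FPKM (limma adjusted p = 0.296 and 0.324).

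Fli1 is the neighbouring protein-coding gene of Ets1 on chromosome 9 by the RefSeq gene order. Its raw values were 65.7, 60.6 and 70.1 FPKM in wild type, 78.0, 51.0 and 61.9 in HMGN1, and 55.6, 75.5 and 63.7 in Ts1Rhr. The 3 groups overlapped fully, and the Ts1Rhr difference was -0.02 in raw (95% interval -0.41 to 0.37) and -0.07 in normalised FPKM (-0.59 to 0.44). Ratios within a library are given in raw FPKM, since the normalised table does not scale all genes of a library by 1 factor. The ratio of Ets1 to Fli1 was 1.33, 2.16 and 1.69 in wild type, 2.45, 2.49 and 3.13 in HMGN1, and 3.09, 3.04 and 2.82 in Ts1Rhr. Every mutant library thus lay above every wild-type library for this ratio, by 0.82 in Ts1Rhr and 0.66 in HMGN1 on the log2 scale. The exact permutation p (two-sided) was 0.1 for each, which is the smallest that 3 libraries against 3 allow, and 0.225 after Benjamini-Hochberg adjustment over the 9 ratio comparisons made.

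Spib, the relative of Spi1 in B and plasmacytoid dendritic cells, stood at 81.5, 124 and 114 raw FPKM in wild type, 151, 100 and 119 in HMGN1, and 118, 99.4 and 152 in Ts1Rhr. The groups overlapped, with a Ts1Rhr difference of 0.21 in raw (95% interval -0.27 to 0.68) and 0.10 in normalised FPKM (-0.46 to 0.66). The summed plasmacytoid dendritic cell markers, 7 genes of which Klk1 was listed at 0 throughout, lay between 59.3 and 77.9 raw FPKM in all 9 libraries, a sum led by Tcf4, which is also made in other cells. Its 4 tested members did not move together. Bst2 fell in the raw table from a mean of 17.6 in wild type to 7.68 in Ts1Rhr (limma adjusted p = 0.0371), Lair1 stood at 20.6 and 13.0, and Tcf4 at 32.0 and 46.1, the latter pair without passing. These genes were named after their values were seen. The ratio of Spi1 to Spib in raw FPKM was 0.814, 0.380 and 0.379 in wild type, 0.188, 0.577 and 0.234 in HMGN1, and 0.259, 0.216 and 0.158 in Ts1Rhr. All 3 Ts1Rhr libraries thus had a lower ratio than all wild-type ones, by 1.24 on the log2 scale (exact two-sided permutation p = 0.1, the smallest possible, adjusted 0.225), while HMGN1 overlapped wild type (-0.73, exact permutation p = 0.3).

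The ratio of Spi1 to Ets1 separated Ts1Rhr from wild type most widely of the 3 ratios. It was 0.757, 0.361 and 0.365 in wild type and 0.178, 0.0935 and 0.133 in Ts1Rhr, a fold of 0.281 on the geometric mean (exact two-sided permutation p = 0.1, adjusted 0.225). In HMGN1 it was 0.149, 0.456 and 0.144, with replicate 2 inside the wild-type range and the other two libraries inside that of Ts1Rhr. Ts1Rhr against HMGN1 gave -0.71 on the log2 scale (exact permutation p = 0.4), and from -0.999 to -0.17 with 1 library left out.

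**Figure D2:**
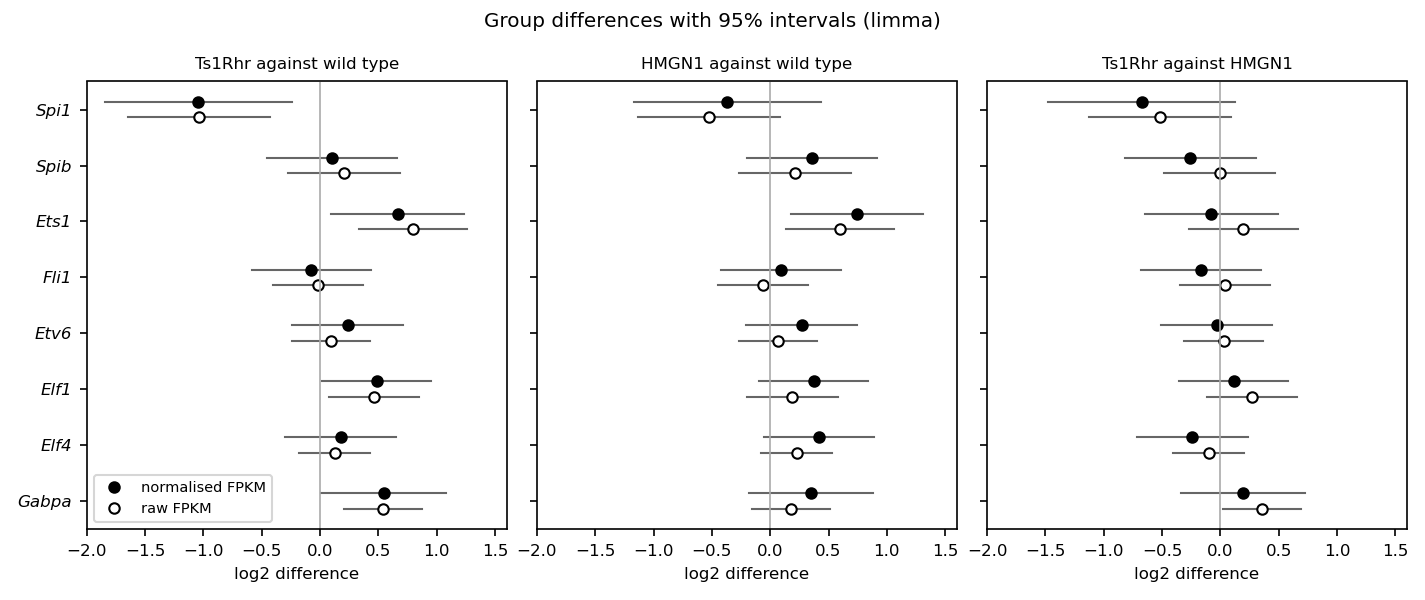
Log2 difference of each factor (horizontal axes) with its 95% interval in the 3 comparisons, from limma over all 9 libraries, filled for spike-in normalised and open for raw FPKM. Spi1 in Ts1Rhr against wild type stands at -1.04 in both tables. In that comparison the intervals of Spi1, Ets1, Elf1 and Gabpa exclude 0 in both tables. In the normalised one the lower ends are only 0.020 for Elf1 and 0.012 for Gabpa. The intervals are not adjusted for the number of genes tested.

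Gabpa and Elf1 are broadly expressed factors, and their promoters are shown because their levels were higher in all Ts1Rhr libraries than in all wild-type ones though both genes lie outside the triplicated segment. The windows run from 250 bases before to 50 after the start in RefSeq (GRCm38.p6), 5′ to 3′ on the gene's strand, with the ETS core in capitals in either orientation (GGAA, or TTCC on the other strand). RefSeq gives a second start for Elf1. Spib, whose levels overlapped, is shown for comparison.
Gabpa (chr16:84834874-84835173, plus strand): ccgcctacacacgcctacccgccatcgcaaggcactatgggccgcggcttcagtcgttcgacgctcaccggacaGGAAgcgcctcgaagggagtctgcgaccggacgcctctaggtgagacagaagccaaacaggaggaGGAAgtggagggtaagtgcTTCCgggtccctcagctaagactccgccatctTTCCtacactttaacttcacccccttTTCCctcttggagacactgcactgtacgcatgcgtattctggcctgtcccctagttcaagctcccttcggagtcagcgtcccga
Elf1, first start (chr14:79480944-79481243, plus strand): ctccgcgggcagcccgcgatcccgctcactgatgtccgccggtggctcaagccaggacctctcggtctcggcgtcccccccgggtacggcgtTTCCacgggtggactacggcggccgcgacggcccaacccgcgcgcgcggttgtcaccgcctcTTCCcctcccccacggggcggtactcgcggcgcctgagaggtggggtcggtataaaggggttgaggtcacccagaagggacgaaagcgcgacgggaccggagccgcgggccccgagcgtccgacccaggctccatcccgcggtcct
Elf1, second start (chr14:79515424-79515723, plus strand): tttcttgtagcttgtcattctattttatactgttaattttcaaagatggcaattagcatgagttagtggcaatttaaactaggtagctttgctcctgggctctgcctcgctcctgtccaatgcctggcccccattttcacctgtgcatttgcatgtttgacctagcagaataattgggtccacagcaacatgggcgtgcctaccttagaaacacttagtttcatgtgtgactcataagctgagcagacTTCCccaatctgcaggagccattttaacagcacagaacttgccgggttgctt
Spib (chr7:44532022-44532321, minus strand): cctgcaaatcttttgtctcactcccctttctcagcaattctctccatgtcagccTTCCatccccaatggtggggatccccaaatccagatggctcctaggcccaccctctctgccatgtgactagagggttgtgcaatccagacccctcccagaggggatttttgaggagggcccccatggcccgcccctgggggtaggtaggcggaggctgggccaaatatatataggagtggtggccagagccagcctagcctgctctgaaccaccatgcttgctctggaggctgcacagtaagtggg

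The Gabpa window held 5 GGAA cores over both strands, the Elf1 windows 2 and 1, and the Spib window 1. The core was in 96.0% of the 32544 promoter windows of the same length, with a median of 3 per window. The longer match GGAAGT, which contains the core, was in 23.7% of windows, among them the Gabpa window, starting 111 bases before the start, and the second Elf1 window. Of the other factors with a window in the table, Etv6 held 6 cores and the Elf4 windows 8 and 2. The FPKM are per gene, and which start was used was not measured.

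Gabpa stood at 29.2, 31.1 and 29.1 raw FPKM in wild type, at 32.0, 32.5 and 36.7 in HMGN1, and at 38.4, 53.9 and 39.1 in Ts1Rhr. The 3 groups did not overlap, in the order wild type, HMGN1, Ts1Rhr, and Ts1Rhr replicate 2 stood highest. The raw difference of Ts1Rhr from wild type was 0.54 on the log2 scale (SE 0.15), and missed the threshold at a limma adjusted p of 0.0513. The normalised difference was also 0.54, with an adjusted p of 0.245, and there HMGN1 (30.2, 44.9 and 38.6) overlapped both other groups. Gabpa lies on chromosome 16 outside the triplicated segment and overlaps Atp5j, an ATP synthase subunit gene, in RefSeq. Without strand in the counting, which is not stated, reads of the overlap cannot be assigned. Atp5j itself stood at 78.3, 65.8 and 64.0 raw FPKM in wild type and 64.0, 62.2 and 39.0 in Ts1Rhr. The part of the overlap in the Gabpa values was not tested.

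Elf1 stood at 21.7, 30.01 and 34.9 raw FPKM in wild type, 33.4, 29.0 and 34.9 in HMGN1, and 35.9, 41.3 and 40.3 in Ts1Rhr. Ts1Rhr lay above both other groups in every library, and wild-type replicate 1, the library with the highest macrophage marker sum, was the lowest of all. The difference from wild type was 0.46 in raw and 0.49 in normalised FPKM (limma adjusted p = 0.104 and 0.237). Elf1 overlaps Wbp4 in RefSeq, which stood at 13.1 to 27.0 raw FPKM in wild type and 15.96 to 22.4 in Ts1Rhr.

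Elf4, a relative of Elf1 that restrains proliferation of T cells, is on the X chromosome. It stood at 21.3, 24.1 and 22.1 raw FPKM in wild type, 31.1, 23.5 and 24.9 in HMGN1, and 24.4, 24.7 and 24.6 in Ts1Rhr. The male Ts1Rhr library lay between the other two of its group. Ts1Rhr exceeded wild type in every library in raw FPKM, yet by 0.13 on the log2 scale only (limma adjusted p = 0.555), and the normalised values overlapped.

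Etv6, the repressor that is fused to RUNX1 in childhood B cell leukaemia, was the least abundant of the 8. It stood at 10.1, 10.8 and 11.4 raw FPKM in wild type, 12.0, 11.02 and 10.8 in HMGN1, and 9.45, 12.5 and 12.8 in Ts1Rhr. The groups overlapped in raw FPKM, with a Ts1Rhr difference of 0.09 (95% interval -0.24 to 0.43), and in the normalised table, where Ts1Rhr lay wholly above wild type and HMGN1 overlapped both, it was 0.24 (limma adjusted p = 0.573). Of 4 tested co-repressor genes that Etv6 and related repressors work with, 0 passed limma's test in either table, with an unadjusted p under 0.05 for 2 in the raw and 1 in the normalised table, where 30.9% and 19.5% of all genes were. Sin3a, a scaffold of such complexes, had the smallest p, at 13.8 raw FPKM in wild type and 18.7 in Ts1Rhr (limma adjusted p = 0.115), and the highest level was that of Hdac3, a histone deacetylase, at 142 and 206.

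Counted as groups without overlap, 4 of the 8 factors were wholly higher and 1 wholly lower in Ts1Rhr than in wild type in each table. In the raw table these were Ets1, Elf1, Elf4 and Gabpa against Spi1, where 37.6% of all genes separated in this way (19.1% higher and 18.5% lower), and in the normalised table Etv6 took the place of Elf4, where 30.2% did (21.7% higher and 8.43% lower). For HMGN1 against wild type, 1 of 8 (Gabpa) was wholly higher in raw FPKM, against 9.81% of all genes, and 3 of 8 (Ets1, Elf1 and Elf4) in normalised FPKM, against 16.6%. Between Ts1Rhr and HMGN1, Elf1 and Gabpa were wholly higher in raw FPKM, against 6.89%, and 0 of 8 separated in normalised FPKM, against 8.39%. The normalised table shifts the median of all tested genes by 0.12 in Ts1Rhr and 0.21 in HMGN1 on the log2 scale, against 0.01 for both in the raw table. The median difference of the 8 factors was 0.21 and 0.35 in the normalised table, and 0.17 and 0.18 in the raw one. The HMGN1 and Ts1Rhr comparisons share the wild-type libraries.

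The order of levels, in raw FPKM per length, was Ets1, Spib, Fli1, Spi1, Gabpa, Elf1, Elf4 and Etv6 in wild type. Ets1 and Spib overlapped there (means of 112 and 107), as did Fli1 and Spi1, Gabpa and Elf1, and Elf1 and Elf4, while Spib lay clear of Fli1, Spi1 of Gabpa, and Elf4 of Etv6. The order of means was the same in HMGN1, with Spi1 and Gabpa now overlapping. In Ts1Rhr, Ets1 lay clear of Spib (means of 194 and 123), and Spi1 was sixth, below Gabpa (43.8) and Elf1 (39.2) and level with Elf4 (25.3 and 24.6). Spi1 varied most over the 9 libraries in raw FPKM, with a highest value 3.10 times the lowest, and Etv6 least, with 1.35 times.

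**Figure D3:**
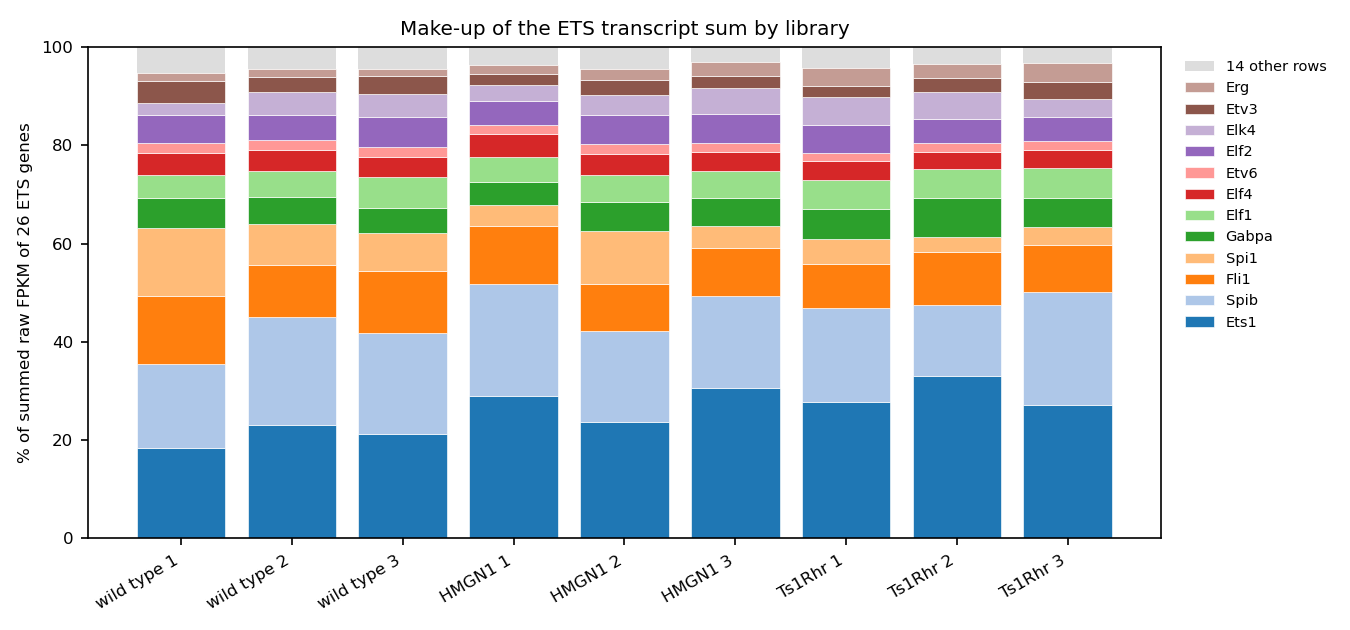
Share of each ETS gene in the summed raw FPKM of the 26 ETS rows (vertical axis, %), in each of the 9 libraries. The 8 factors hold 78.3% to 84.2% of the sum in every library, and the Spi1 band narrows from wild type to Ts1Rhr while that of Ets1 widens.

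The 26 ETS rows summed to 534 ± 49.7 raw FPKM (SD, n = 3) in wild type, 612 ± 64.9 in HMGN1 and 658 ± 38.0 in Ts1Rhr, of which the 8 factors held 80.4%, 81.6% and 79.9%. Spi1 made up 10.0% ± 3.41 of the sum in wild type, 6.47% ± 3.70 in HMGN1 and 3.87% ± 0.959 in Ts1Rhr. Ets1 made up 20.9% ± 2.36, 27.7% ± 3.66 and 29.4% ± 3.25. Of the other 18 ETS genes, 9 were tested and 3 (Etv2, Spdef and Fev) were listed at 0 in all libraries. Of the 9, 1 passed in Ts1Rhr in each table, where 46 of all 10878 genes rose in the normalised table and 4.29% in the raw one. This was Erg, a stem cell and pro-B factor inside the triplicated segment. Its raw values were 7.78, 9.47 and 8.17 in wild type, 12.1, 12.3 and 17.8 in HMGN1, and 22.5, 19.8 and 26.1 in Ts1Rhr, so the 3 groups did not overlap. The difference of Ts1Rhr from wild type was 1.54 in normalised and 1.41 in raw FPKM (limma adjusted p = 0.011 in both). The call was lost without Ts1Rhr replicate 2 or 3 or wild-type replicate 3, with 0 of the 9 called, in either table, and in the raw table also without wild-type replicate 1. Ets2, its neighbour in the segment, stood at 2.98 raw FPKM in wild type and 4.03 in Ts1Rhr (limma adjusted p = 0.313). Elf2 and Elk4, the most abundant of the others, stood at 30.1 and 21.6 in wild type and 33.4 and 32.9 in Ts1Rhr, without passing.

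Partner proteins of the ETS factors were taken from a list of 16, of which 14 were tested. In Ts1Rhr 3 rose and 1 fell in the raw table, with 0 in the normalised one (5 at an unadjusted limma p under 0.05), and 11 of 14 had a higher value in both. Of all genes 4.29% rose and 4.56% fell in the raw table, 19.5% had an unadjusted p under 0.05 in the normalised one, and 51% and 59.9% had a higher value in the raw and normalised tables. The median difference was 0.46 in raw and 0.45 in normalised FPKM. Gabpb1, the partner that gives GABP its activation domain, rose from 25.1, 31.2 and 32.0 to 41.8, 56.2 and 59.0 raw FPKM (limma adjusted p = 0.033). Runx1, which binds DNA together with Ets1, rose from 17.3, 22.2 and 21.4 to 28.6, 47.5 and 37.1 (limma adjusted p = 0.0325), and Myb, the factor of proliferating progenitors and the most abundant partner, from a mean of 210 to 350 (limma adjusted p = 0.046). Cebpb, which acts with PU.1 in myeloid cells, fell from 22.4, 16.2 and 17.1 to 7.81, 7.87 and 8.52 (limma adjusted p = 0.0365), and Cebpa stood at 40.7 and 22.8 (limma adjusted p = 0.0515). No partner passed in the raw table once wild-type replicate 1 or 3 or Ts1Rhr replicate 2 or 3 was left out. In HMGN1, 11 of 14 had a higher mean than wild type in the raw and 12 in the normalised table, and 0 passed. Of all genes, 51.6% had a higher value in HMGN1 in the raw table and 72.7% in the normalised one.

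Known targets of PU.1 in myeloid cells were lower together with Spi1. All 12 tested of 13 had a lower mean in Ts1Rhr than in wild type in both tables, with a median difference of -0.83 in raw and -0.86 in normalised FPKM, and 4 fell in the raw table, 0 in the normalised one (8 at an unadjusted limma p under 0.05), against 4.56% of all genes that fell in the raw table and 19.5% at that unadjusted p in the normalised one. Of all 10878 genes, 5322 had a lower value in Ts1Rhr than in wild type in the raw table and 4359 in the normalised one. Without wild-type replicate 1 the normalised median of the PU.1 targets was -0.49. Csf1r, the macrophage growth factor receptor, fell from 220, 171 and 186 to 108, 100 and 63.2 raw FPKM (limma adjusted p = 0.033), with 122, 190 and 102 in HMGN1. Csf2ra and Csf2rb, chains of the GM-CSF receptor, fell from means of 46.5 to 24.3 and of 153 to 94.7, and Fcgr3, an Fc receptor, from 111 to 61.2 (limma adjusted p = 0.0324, 0.0381 and 0.0343). Itgb2, the integrin chain with the highest level, stood at 419 in wild type and 264 in Ts1Rhr (limma adjusted p = 0.0915). The count of 4 became 0 without wild-type replicate 1 or 3 or Ts1Rhr replicate 2 or 3 and 7 without HMGN1 replicate 3, while all 12 kept a lower mean with each of the 9 libraries left out in turn. In HMGN1, 12 of 12 had a lower mean than wild type in the raw and 11 in the normalised table, and 0 passed. Of all 10878 genes, 5250 had a lower value in HMGN1 in the raw table and 2974 in the normalised one. Without wild-type replicate 1 the normalised count was 7 of 12, with a median of -0.052 in place of -0.34, and the median was -0.11 without HMGN1 replicate 3, -0.21 without replicate 1 and -0.65 without replicate 2.

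Macrophage markers moved with Spi1. All 13 tested had a lower mean in Ts1Rhr in both tables, and 7 fell in the raw table, 0 in the normalised one (9 at an unadjusted limma p under 0.05), against 4.56% and 19.5% of all genes. The 7 became 0 without wild-type replicate 1 or 3 or Ts1Rhr replicate 2 or 3, 2 without Ts1Rhr replicate 1 and 4 without wild-type replicate 2. Of all 10878 genes, 5322 had a lower value in Ts1Rhr in the raw table and 4359 in the normalised one. In HMGN1, all 13 macrophage markers also had a lower mean than wild type in both tables, and 0 passed. There 5250 of all genes had a lower value in the raw table and 2974 in the normalised one. The normalised HMGN1 median of the 13 was -0.42, and -0.17 without wild-type replicate 1. In bulk RNA, fewer macrophages and less RNA per macrophage cannot be told apart. Spi1 per 1000 raw FPKM of the macrophage marker sum, a scale chosen after the values were seen, was 1.75, 1.87 and 1.70 in wild type, 1.37, 1.90 and 1.90 in HMGN1, and 1.66, 1.20 and 1.47 in Ts1Rhr. On that scale the means were 1.77 ± 0.0881 (SD, n = 3) and 1.44 ± 0.229, and of the HMGN1 libraries replicates 2 and 3 lay above every wild-type one and replicate 1 below. Lyz2 dominates the sum, and without it the Spi1 values per 1000 FPKM overlapped between wild type (8.19 to 9.32) and Ts1Rhr (8.14 to 9.87). The median Ts1Rhr difference of the 13 macrophage markers was -0.87 in raw and -1.03 in normalised FPKM, beside -0.83 and -0.86 for the PU.1 targets. The part of the macrophages in the differences of Spi1 and of the PU.1 targets was not tested. Neutrophil markers had a lower mean than wild type for 8 of 8 tested, in Ts1Rhr and in HMGN1 and in both tables, and none passed. Their sums were 150 to 248 raw FPKM in wild type, 58.6 to 206 in HMGN1 and 68.4 to 162 in Ts1Rhr. Stromal markers summed to 60.5 to 96.0 in wild type, 3.36 to 12.9 in HMGN1 and 4.40 to 17.4 in Ts1Rhr. Of the 5 tested, 4 were lower in Ts1Rhr in both tables by the test. Of all 10878 genes, 4.56% fell in the raw table and 16 genes in the normalised one. In HMGN1, 1 of the 5 fell in the raw table and 3 in the normalised one, against 4 and 9 of all genes. T and NK cell markers summed to at most 25.1 in any library, with Gzma listed at 0 throughout. Megakaryocyte markers, of a lineage in which Fli1 acts, summed to 40.9 to 52.6 in wild type, 18.4 to 36.6 in HMGN1 and 14.1 to 23.2 in Ts1Rhr. Erythroid markers summed to 36.5 to 55.8, 55.4 to 92.2 and 91.1 to 118, with the globins Hbb-b1 and Hba-a1 listed at 0 in all libraries. Over all 9 libraries the markers of later B cells summed to 396 to 535 raw FPKM, those of conventional dendritic cells to 59.7 to 118, of endothelium to 16.4 to 24.7 and of mast cells and basophils to 0.183 to 4.67.

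**Figure D4:**
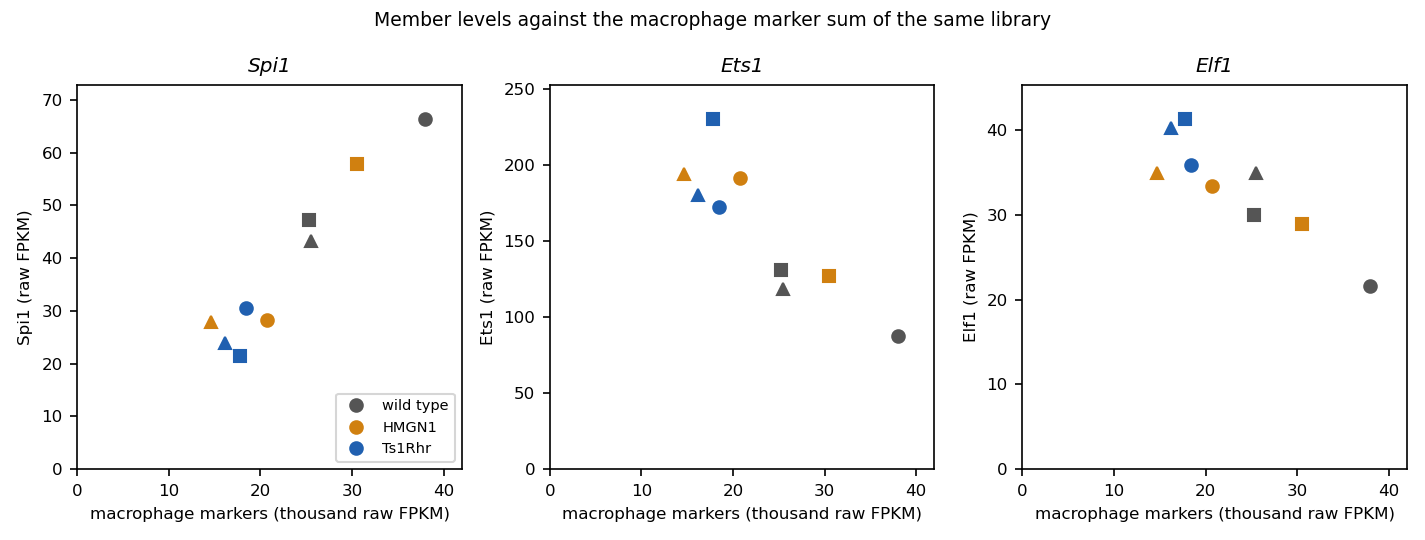
Raw FPKM of Spi1, Ets1 and Elf1 (vertical axes from 0) against the summed raw FPKM of 14 macrophage markers (horizontal axes, in units of 1000) in the 9 libraries, by group colour and with circle, square and triangle for replicates 1, 2 and 3. Spi1 is highest and Ets1 and Elf1 lowest in wild-type replicate 1, the library with the largest sum, and HMGN1 replicate 2 (57.9 for Spi1) lies with wild type.

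B cell genes known as ETS targets held members with higher and with lower means. Of 11 tested, 7 had a higher mean in Ts1Rhr in both tables, and 2 rose in the raw table, 0 in the normalised one (3 at an unadjusted limma p under 0.05), with median differences of 0.19 and 0.09. Of all genes 51% had a higher value in the raw and 59.9% in the normalised table, 4.29% rose in the raw one and 19.5% had an unadjusted p under 0.05 in the normalised one. Without wild-type replicate 3 the normalised count was 4 of 11, with a median of -0.083. The raw median was 0.062 without wild-type replicate 1 and 0.30 without replicate 2, and the normalised one was 0.23 without wild-type replicate 2, 0.040 without Ts1Rhr replicate 1 and 0.15 without Ts1Rhr replicate 3. Igll1, a chain of the surrogate light chain of the pre-B receptor, rose from 47.6, 73.3 and 47.6 to 123, 97.7 and 94.8 raw FPKM (limma adjusted p = 0.0325), and Vpreb1, its partner chain, from 90.4, 139 and 112 to 233, 181 and 244 (limma adjusted p = 0.0374). In HMGN1 Igll1 stood at 91.7, 96.3 and 128, above wild type in every library. Il7r, the receptor of the cytokine in the medium, stood at 162 in wild type and 133 in Ts1Rhr (limma adjusted p = 0.219). Both calls were lost without any 1 of wild-type replicates 1 and 3 and the 3 Ts1Rhr libraries. Igll1 and Cd79a also stand among the 14 pro-B markers, whose sum was 1687, 1921 and 1625 raw FPKM in wild type, 2682, 2104 and 2842 in HMGN1, and 2159, 1938 and 2488 in Ts1Rhr. Ets1 per 1000 FPKM of that sum was 52.0, 68.1 and 73.0 in wild type, 71.4, 60.4 and 68.3 in HMGN1, and 79.7, 119 and 72.4 in Ts1Rhr. Vpreb3 dominates the sum, and it stood at a mean of 797 in wild type and 804 in Ts1Rhr. Without it the Ets1 values were 107, 125 and 121 in wild type, 138, 110 and 133 in HMGN1, and 130, 176 and 117 in Ts1Rhr, so the groups overlapped. Of the 14 pro-B markers, 13 had a higher mean in Ts1Rhr in the raw and 12 in the normalised table, 6 rose in the raw and 1 (Erg, which lies in the triplicated segment) in the normalised one (0 to 3 with 1 library left out), and the median difference was 0.73 and 0.71, beside 0.80 and 0.66 for Ets1. The 6 became 0 without wild-type replicate 1 or 3 or Ts1Rhr replicate 2 or 3, and without wild-type replicate 1 the raw median was 0.44. In HMGN1, 10 of the 11 B cell targets and 13 of the 14 pro-B markers had a higher mean than wild type in both tables, and 0 passed. There 51.6% of all genes had a higher value in the raw table and 72.7% in the normalised one. The part of the pro-B share in the Ets1 difference was not tested.

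Nuclear genes of mitochondrial function that GABP is known to bind held 6 tested members. In Ts1Rhr 0 of the 6 passed limma's test in either table, also at an unadjusted p under 0.05. Of all genes, 8.85% passed in the raw and 0.57% in the normalised table, and 30.9% and 19.5% had an unadjusted limma p under 0.05. The median difference of the 6 in Ts1Rhr was 0.07 in raw and 0.02 in normalised FPKM. Tfam, the mitochondrial transcription factor, had the smallest p, at 18.2 raw FPKM in wild type and 22.9 in Ts1Rhr (limma adjusted p = 0.225), and Atp5b, an ATP synthase subunit with the highest level, stood at 412 and 434.

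The genes whose raw log2 pattern over the 9 libraries was most like that of a factor, as a description over libraries that share the groups, were Tor1aip2, Esd and B2m for Spi1 (Pearson r = 0.995, 0.992 and 0.982), Anapc5, Atad2 and Pik3cd for Ets1 (0.994, 0.987 and 0.986), and Esco2, Hnrnpk and Slc4a7 for Gabpa (0.988, 0.984 and 0.980). For Elf1 they were Ppp6r1, Rbm33 and Atxn7, with r from 0.986 to 0.976. Esd stood at 125, 95.5 and 94.7 raw FPKM in wild type and 64.6, 53.1 and 60.9 in Ts1Rhr. Anapc5, a subunit of the anaphase-promoting complex, stood at 175, 215 and 199 in wild type and 256, 320 and 268 in Ts1Rhr. Their separation of the groups follows from how they were picked. For Spib, Fli1, Etv6 and Elf4, whose groups overlapped in most comparisons, the closest genes were Timmdc1, Shq1, Nlk and Gga3, with r from 0.919 to 0.966.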

How the data were processed

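Polyadenylated RNA with added ERCC spike-ins was sequenced from 9 cultures, 3 per group, grouped by the labels' genotype. The authors deposited FPKM in 2 tables, raw and normalised to the spike-ins, with HISAT, Cufflinks 2.0.0 and build mm9 named per the submitters' processing notes. The making of the normalised table, the annotation and the strand setting were not given in the sources used here. Over the 19 spike-ins with a mean of at least 5 raw FPKM, library medians lay between -0.42 and 0.35 around their mean on the log2 scale in the raw table, and between -0.0653 and 0.0929 in the normalised one. Normalised values are never 0, since about 0.1 is inside them.

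Of 23398 rows, 92 spike-ins and 27 rows with dates for symbols were left out, and the 10878 genes whose raw FPKM averaged 1 or more were tested with limma 3.58.1 in R 4.3.3 (intensity trend, all 9 libraries in 1 fit, two-sided, Benjamini-Hochberg over all tested genes, threshold 0.05) on log2 of the normalised FPKM, and on log2(raw FPKM + 0.1) as the alternative. With this added value, folds of low genes come out too small. Ratios of factors were compared by exact permutation. Count tests and counting intervals need read counts and were not used. The procedure was tested on simulated data.

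Named are the 8 factors, other ETS genes with a mean of at least 1, from each further list up to 5 genes by smallest p in Ts1Rhr against wild type and the one with the highest level, and the 3 genes of highest r per factor. Lists covered partners, Etv6 co-repressors, targets and cell type markers. Members and lists were chosen with earlier results of these data known, from textbook knowledge. RefSeq (GRCm38.p6) gave gene order, the pairing of Spi1 with Sfpi1 and promoter sequences, which matched for Spib, Etv6, Elf1, Elf4 and Gabpa. Alternatives covered the scaling, pseudocount, filter, variance model, replicate block and each library left out. Counts for the other lists without each library, and levels per marker sum, were added after seeing the data.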

Additional observations from a re-analysis of the deposited data

How the results depend on the processing

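The count of factors that passed in Ts1Rhr against wild type depended on the table. It was 0 in the normalised table and 2 (Spi1 and Ets1) in the raw table with 0.1 or with 1 added, 1 (Spi1, -1.18, limma adjusted p = 0.0439) with the normalised libraries shifted to 1 median, and 0 with 1 spike-in factor per library, 1 added to the normalised values, either filter, no trend or only the 2 groups in the fit. Leaving out 1 library gave 0 in the normalised table and 0 to 2 in the raw table, with 1 to 1276 genes called there over the whole table and 0 factors without any 1 wild-type or Ts1Rhr library. In the other comparisons it was 0 under every alternative run. All genes called in Ts1Rhr numbered 62 in the normalised and 963 in the raw table, 693 after the median shift, 940 with 1 added to raw FPKM, 113 with 1 spike-in factor, 8 without a filter and 267 with only the 2 groups.

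Spi1, Gabpa and Elf1 in Ts1Rhr against wild type and Ets1 in both comparisons with wild type kept their direction under all 29 alternatives, Spi1 between -1.32 and -0.73, Ets1 between 0.52 and 0.96, Gabpa between 0.38 and 0.71 and Elf1 between 0.27 and 0.63 in Ts1Rhr. Differences near 0 changed sign. In Ts1Rhr against wild type, Spib was -0.033 after the median shift and Fli1 0.15 with 1 spike-in factor, and with 1 library left out in either table Spib ran from -0.026 to 0.35 and Fli1 from -0.19 to 0.087. In HMGN1 against wild type, Fli1 was -0.0598 in raw FPKM, -0.0587 with 1 added and -0.11 after the median shift, and with 1 library left out it ran from -0.22 to 0.24 and Elf1 from -0.0017 to 0.47. In Ts1Rhr against HMGN1, raw FPKM gave Ets1 0.198, Fli1 0.0396 and Etv6 0.0280, adding 1 gave 0.197, 0.0389 and 0.0268, the median shift gave Etv6 0.041, and 1 spike-in factor gave Spib 0.094, Ets1 0.30, Fli1 0.14, Etv6 0.13 and Elf4 0.0024. With 1 library left out there, Spib ran from -0.38 to 0.15, Ets1 from -0.21 to 0.30, Fli1 from -0.28 to 0.20, Etv6 from -0.13 to 0.17 and Elf4 from -0.31 to 0.021. The cause of these changes was not tested. The ratios kept their direction under all alternatives.

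Replicate numbers do not pair the samples by the labels, and deviations of same-numbered libraries correlated at -0.13 to 0.16. With the replicate number as a block, 0 factors passed in Ts1Rhr against wild type in either table (119 genes in all normalised, 314 raw), 0 passed in the other comparisons, and the raw differences stayed as they were (Fli1 -0.0598 in HMGN1 against wild type, and Ets1 0.198, Fli1 0.0396 and Etv6 0.0280 in Ts1Rhr against HMGN1).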
